A study of Homo sapiens with 24 samples.

Results

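Estradiol by CG-1521 interaction in SUM190PT is the difference between 2 effects of estradiol: its effect on RNA levels in cells that also received CG-1521, minus its effect in cells that did not. SUM190PT is a human inflammatory breast cancer line that the labels give as estrogen receptor negative, and CG-1521 is an inhibitor of histone deacetylases. The contrast uses the 12 SUM190PT arrays of the 24 arrays in the study, chosen by sample title, with 3 arrays in each of 4 groups. The groups were the combination of 10 nM 17β-estradiol and 5 µM CG-1521 (E2+CG), 5 µM CG-1521 (CG), 10 nM 17β-estradiol (E2) and vehicle, which was ethanol and DMSO. All 4 groups were plated in medium with serum, moved to fresh medium without serum and then treated for 48 h. Each group's arrays stand for 3 separate experiments on 1 cell line, and hold no spread between patients or between lines. The other 12 arrays were of SUM149PT, a second inflammatory breast cancer line, treated in the same 4 ways but with 7.5 µM CG-1521 and, per the labels, in growth medium that holds serum.

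Estradiol acts mainly through the nuclear estrogen receptors α and β, which bind DNA at estrogen response elements and recruit coactivators that carry histone acetyltransferase activity. It also binds GPER1, a membrane receptor coupled to G proteins, which signals without the nuclear receptors. Histone deacetylase inhibitors raise the acetylation of histones and of other proteins, and in breast cancer cells are known to induce the cell cycle inhibitor CDKN1A. An interaction asks whether an inhibitor of this kind alters what the hormone does, gene by gene. A positive interaction means that the estradiol effect was more positive with CG-1521 than without it, and a negative one that it was more negative.

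Values are log2 expression after RMA, which corrects background, equalises the distribution of the arrays and summarises the probes of each probe set. A difference of 1 is a 2-fold change. Within the 4 SUM190PT groups, arrays correlated with each other above 0.98 in every case. Markers of luminal breast cells had a median level per array between 9.10 and 10.42, and ERBB2, which encodes the growth factor receptor HER2, lay between 11.89 and 12.85. Markers of basal breast cells had medians of 5.67 to 6.17 on arrays without CG-1521 and 6.85 to 7.13 on arrays with it. Markers of other cells that a culture could hold lay at median levels of 4.43 to 4.86 for leukocytes, 4.19 to 4.57 for endothelium and 4.68 to 5.18 for fibroblasts. ESR1, which encodes estrogen receptor α, lay between 4.35 and 4.85 on the 12 arrays. A level on these arrays depends on the probe set, so levels of different genes can be compared only roughly.

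Of 18417 genes tested with limma and Benjamini-Hochberg adjustment over all of them, 95 passed an adjusted p of 0.05 for the interaction, which is 0.516% of the genes. The interaction was positive for 69 genes (0.375%) and negative for 26 (0.141%), and 37 of the 95 had at least a 2-fold difference between the estradiol effects. This split rests on the scaling and on the probe sets. Another quantile normalization gave 0 positive and 3 negative genes, centring each array on its median 1 and 9, and cyclic loess 3 and 14. A fit of all 33297 probe sets, of which 12083 have no gene entry, gave 170 positive and 189 negative probe sets. The adjusted p of the 95 genes ran only between 0.0416 and 0.0498, so all of them stood close to the threshold. At an unadjusted p under 0.05 the count was 4159 genes, or 22.6%, of which 2667 were positive (14.5%) and 1492 negative (8.1%). Arrays were also paired by replicate number, E2 with vehicle and E2+CG with CG. Between E2 and vehicle this pairing was clear only for the third arrays. With these pairs as a block the count was 2414 genes (13.1%), of which 1310 were positive (7.11%) and 1104 negative (5.99%). The 2414 held all 95. With the replicate number as a block across all 4 groups the count was 0, with a smallest adjusted p of 0.0509, which all 95 genes shared. In that fit 4551 genes (24.7%) had an unadjusted p under 0.05, so the 0 reflects adjusted values just past the threshold. The count was also 0, 1 or 4 when any array but the first vehicle array was left out, and 1655 without the first vehicle array.

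Without a block, estradiol with CG-1521 gave 0 genes past the threshold (0.0%; 889 at an unadjusted p under 0.05). Estradiol without CG-1521 gave 1 gene (0.00543%; 4531 unadjusted), KRCC1, and with the pairs as a block 3168 genes (17.2%), more than the 2414 interaction genes of that fit. CG-1521 passed for 4732 genes (25.7%) in the presence of estradiol and for 3053 genes (16.6%) in its absence, comparisons that share no arrays with each other but share all of them with the estradiol comparisons. In the 69 positive genes the median CG-1521 effect was 0.52 in the presence of estradiol and -0.38 in its absence, and in the 26 negative genes it was -0.64 in the presence of estradiol and 0.50 in its absence.

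In every one of the 95 genes the estradiol effect had one sign with CG-1521 and the opposite sign without it, against 12324 of all 18417 genes (66.9%). The 3 E2 arrays lay wholly apart from the 3 vehicle arrays in 95 of the 95 (28.4% of all genes), and the E2+CG arrays apart from the CG arrays in 85 (10.8% of all genes). The threshold itself favours such genes, so these counts describe the 95 and support nothing further. For the 69 positive genes the median estradiol effect was 0.38 with CG-1521 and -0.57 without it. For the 26 negative genes it was -0.36 with CG-1521 and 0.72 without it. The effect without CG-1521 was the larger of the pair in 78 of the 95 genes (82.1%), against 72.6% of all genes. Across all genes the estradiol effects with and without CG-1521 had a Pearson correlation of -0.467, a description across genes, which are not independent replicates.

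**Figure D1:**
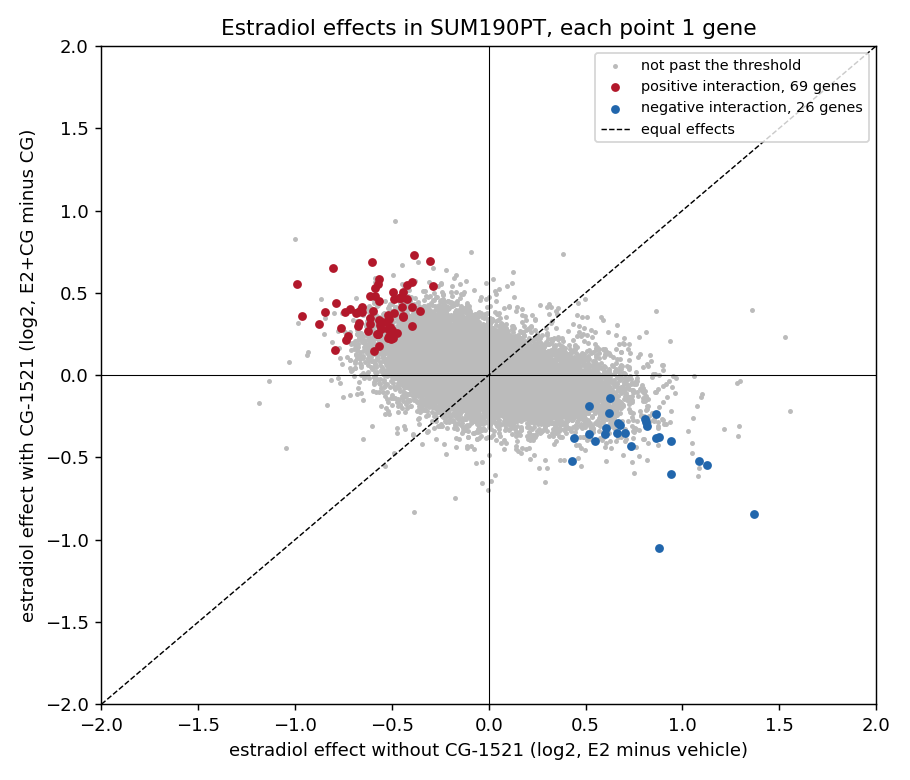
Estradiol effect with CG-1521 (E2+CG minus CG, log2, vertical axis) against the estradiol effect without CG-1521 (E2 minus vehicle, log2, horizontal axis), each point 1 of 18417 genes in SUM190PT. The 69 genes with a positive interaction lie in the upper left and the 26 with a negative interaction in the lower right, all away from the dashed line of equal effects.

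Among the positive genes the largest interactions were those of KRTAP10-1 and CHST14. KRTAP10-1 encodes a keratin-associated protein of the hair shaft. Its log2 values were 7.39, 7.04 and 7.34 in E2+CG, against 6.72, 6.50 and 6.90 in CG, and 6.37, 6.46 and 6.78 in E2, against 7.15, 8.07 and 7.37 in vehicle. The E2+CG arrays were all above the CG arrays, and the E2 arrays all below the vehicle arrays. The interaction was 1.54 (SE 0.297, adjusted p = 0.0483; 95% interval 0.90 to 2.18), a 2.91-fold difference between the estradiol effects. Its neighbour KRTAP10-4, of the same gene family, had an interaction of 1.29 (SE 0.209, adjusted p = 0.0476), and such probe sets may not tell near-identical family members apart.

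CHST14, which encodes a sulfotransferase that builds dermatan sulfate, had values of 7.21, 6.78 and 7.16 in E2+CG against 6.11, 6.40 and 6.69 in CG. In E2 they were 6.13, 6.30 and 6.73 against 6.96, 7.42 and 7.19 in vehicle. Neither pair of groups overlapped. The interaction was 1.45 (SE 0.271, adjusted p = 0.0476). CG-1521 raised CHST14 by 0.66 in the presence of estradiol (adjusted p = 0.0247) and lowered it in its absence (-0.79, adjusted p = 0.0144), so both CG-1521 effects passed the threshold with opposite signs.

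INSL3, a peptide hormone of the insulin and relaxin family, had one of the 4 smallest adjusted p, 0.0416. Its values were 5.55, 5.71 and 5.52 in E2+CG against 4.91, 4.92 and 5.19 in CG, and 5.09, 4.97 and 5.06 in E2 against 5.46, 5.65 and 5.70 in vehicle. The interaction was 1.15 (SE 0.16), with estradiol effects of similar size, 0.58 with CG-1521 and -0.57 without it. The other positive genes named by the rule had interactions between 1.11 and 1.23. They were CFAP77 (1.23), of the cilium; TGFB1I1 (1.23), the focal adhesion and nuclear receptor coregulator Hic-5; KBTBD11 (1.19), a BTB and kelch protein; ANKRD53 (1.13), an ankyrin repeat protein; HBQ1 (1.12), a globin of the α cluster; LRRC24 (1.12), a leucine-rich repeat protein; PRAMEF20 (1.12), of a multicopy family; and SMIM10 (1.11), a small membrane protein. In all of these the E2+CG arrays lay above the CG arrays and the E2 arrays below the vehicle arrays without overlap.

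Among the negative protein-coding genes TAS2R19, a bitter taste receptor, stood first. Its values were 4.09, 4.51 and 4.0 in E2+CG against 4.85, 4.74 and 4.79 in CG, and 4.63, 5.09 and 5.01 in E2 against 4.11, 3.88 and 3.91 in vehicle. The E2+CG arrays were below the CG arrays and the E2 arrays above the vehicle arrays. The interaction was -1.54 (SE 0.214, adjusted p = 0.0416). TAS2R50, a bitter taste receptor of the same family and also on chromosome 12, had -0.95 (SE 0.17, adjusted p = 0.0476). Whether their probe sets tell these family members apart was not tested.

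KRCC1, a lysine-rich coiled-coil protein, was the gene whose estradiol effect without CG-1521 itself passed. It had 5.97, 6.06 and 5.86 in E2+CG against 6.14, 6.26 and 6.20 in CG, and 7.18, 7.21 and 7.15 in E2 against 6.36, 6.20 and 6.40 in vehicle. The 3 E2 arrays stood above all others. Estradiol raised KRCC1 by 0.86 without CG-1521 (adjusted p = 0.0155), while the effect with CG-1521 was -0.24 (adjusted p = 0.999), and the interaction was -1.10 (SE 0.138, adjusted p = 0.0416).

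RPL22, a protein of the large ribosomal subunit, had 5.24, 5.80 and 5.90 in E2+CG against 6.08, 6.02 and 5.97 in CG, and 6.82, 6.78 and 7.04 in E2 against 6.04, 6.03 and 5.95 in vehicle. The first E2+CG array was the lowest of the 12, and the E2 arrays were the highest. The interaction was -1.25 (SE 0.215, adjusted p = 0.0476), and CG-1521 lowered RPL22 in the presence of estradiol (-1.23, adjusted p = 0.000202), against 0.02 in its absence (adjusted p = 0.947). METTL15, a methyltransferase of the mitochondrial ribosome, had 6.07, 5.94 and 5.97 in E2+CG against 6.42, 6.43 and 6.34 in CG, and 7.02, 6.90 and 6.92 in E2 against 6.46, 5.73 and 5.83 in vehicle. Its interaction was -1.34 (SE 0.221, adjusted p = 0.0476), and its first vehicle array lay well above the other vehicle arrays. A second probe set of METTL15 had -0.33 (SE 0.207, adjusted p = 0.382 over all probe sets). METTL15 lies on chromosome 11, and the number of this second probe set falls among those of chromosome 11 genes. The number of the probe set used falls among those of chromosome 3 genes, TMEM158 and GP5. RefSeq also lists a pseudogene, METTL15P1, whose signal may be shared. The values given may thus come from another locus, and the value for METTL15 is uncertain.

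The remaining negative genes of the rule had interactions between -1.24 and -0.96. ZNF429 (-1.24) is a zinc finger protein, and ABHD18 (-1.13) has a hydrolase fold. TMEM67 (-1.10) is a protein of the ciliary transition zone, and HNRNPA1L2 (-1.07) a copy of the RNA-binding protein HNRNPA1 whose signal may be shared with it. HIBCH (-1.01) is an enzyme of valine breakdown, and UGGT2 (-0.99) a glucosyltransferase of glycoprotein folding. STAM2 (-0.96) sorts receptors at endosomes, and RCHY1 (-0.96) is a ubiquitin ligase. TMEM67 was the only one of these whose E2+CG and CG arrays overlapped.

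**Figure D2:**
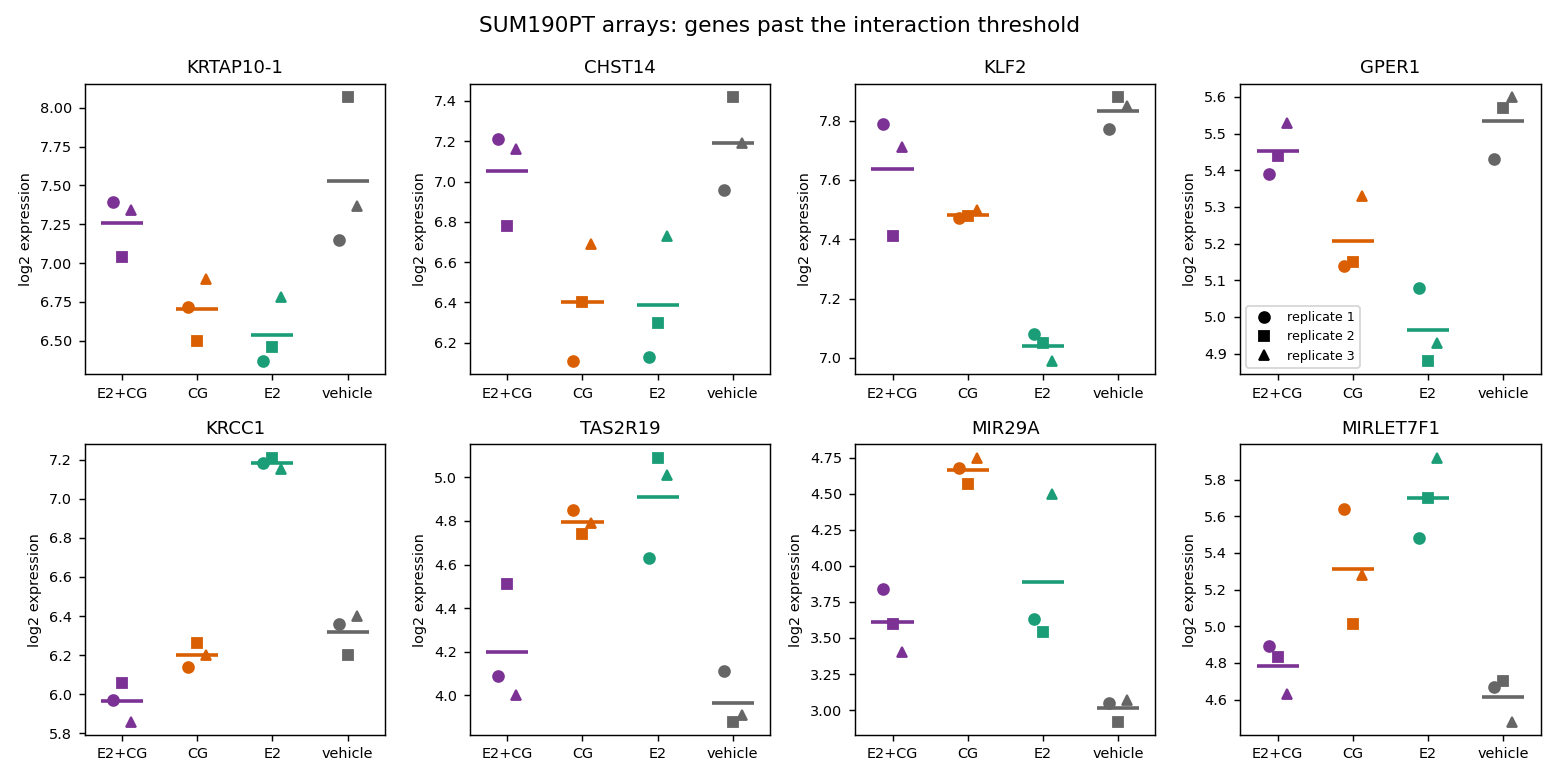
Log2 expression of 8 genes past the interaction threshold on each SUM190PT array, with the groups E2+CG, CG, E2 and vehicle side by side, each point 1 array, the marker shape its replicate number and the bar the group mean. The 4 genes above have E2+CG over CG means and E2 under vehicle means, and the 4 below the opposite.

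Small RNA genes made up 10 of the 95, 5 miRNA genes of 173 tested (2.89%) and 5 snoRNA genes of 175 (2.86%), against 0.485% of the 16900 protein-coding genes. With the pairs as a block, 15 of the 173 miRNA genes passed as positive and 4 as negative. Together this was a smaller share than that of the protein-coding genes, 1177 positive and 1019 negative of 16900. Of the 175 snoRNA genes 1 was positive and 42 negative in that fit. Small RNA genes were looked at after their values were seen. miRNAs guide silencing complexes to messenger RNAs, mostly through the seed, bases 2 to 8 of the mature strand. The arrays do not separate a mature miRNA from its longer precursors. The mature strands below, from RefSeq (GRCh38.p14), are shown because the 5 miRNA genes fall into 4 seeds, with the seed in capitals.
hsa-let-7f-5p: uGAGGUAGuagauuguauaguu
hsa-let-7c-5p: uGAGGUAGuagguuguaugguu
hsa-miR-29a-3p: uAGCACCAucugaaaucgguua
hsa-miR-212-3p: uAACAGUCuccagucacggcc
hsa-miR-375-3p: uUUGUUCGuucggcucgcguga

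MIR29A lies at chr7:130876747-130876810 on the minus strand, and miR-29 is known for repressing collagen genes and DNA methyltransferases. Its values were 3.84, 3.60 and 3.40 in E2+CG against 4.68, 4.57 and 4.75 in CG, and 3.63, 3.54 and 4.50 in E2 against 3.05, 2.92 and 3.07 in vehicle. The CG arrays were the highest and the vehicle arrays the lowest, and the third E2 array stood well above the other E2 arrays. The interaction was -1.93 (SE 0.294, adjusted p = 0.0476; 3.82-fold). Without the third E2 array it was -1.63 (adjusted p = 0.0208), and without the third E2 and the third vehicle arrays MIR29A alone of the 95 genes still passed (-1.65, adjusted p = 0.0478). MIR29B1, which shares its seed, had an interaction of -0.07 (SE 0.15, adjusted p = 0.833).

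The let-7 family, known for repressing growth-promoting genes such as those of the RAS family, shares the seed of let-7f-5p and let-7c-5p shown above. MIRLET7F1, at chr9:94176347-94176433, had 4.89, 4.83 and 4.63 in E2+CG against 5.64, 5.01 and 5.28 in CG, and 5.48, 5.70 and 5.92 in E2 against 4.67, 4.70 and 4.48 in vehicle. The E2 arrays lay above the vehicle arrays and the E2+CG arrays below the CG arrays. Its interaction was -1.61 (SE 0.227, adjusted p = 0.0416), and that of MIRLET7C, at chr21:16539828-16539911, was -0.88 (SE 0.173, adjusted p = 0.0498). Of the 10 measured genes with this seed 2 passed and 5 had a negative value. MIRLET7F2, whose mature strand is the same as that of MIRLET7F1, had -0.02 (SE 0.208, adjusted p = 0.971), and MIRLET7I had 0.76 (SE 0.233, adjusted p = 0.0934).

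The miRNA genes with a positive interaction were MIR212 (1.04, SE 0.205, adjusted p = 0.0498), at chr17:2050271-2050380, and MIR375 (0.96, SE 0.189, adjusted p = 0.0498), at chr2:219001645-219001708. miR-212 is a miRNA induced by CREB in neurons, and miR-375 is known from pancreatic islets and from luminal breast cancer. MIR212 had 6.51, 6.38 and 6.71 in E2+CG against 6.20, 6.22 and 6.04 in CG, and 6.00, 5.73 and 5.74 in E2 against 6.29, 6.78 and 6.35 in vehicle. No array of one group overlapped the other in either pair. MIR132, which has the same seed as MIR212 and lies beside it in the genome, had 0.75 (SE 0.179, adjusted p = 0.0647).

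Among miRNA genes the interaction moved with the base composition of the hairpin. The hairpins of the genes with the lowest and the highest share of G and C among the 5 are shown for this, with G and C in capitals.
MIR29A: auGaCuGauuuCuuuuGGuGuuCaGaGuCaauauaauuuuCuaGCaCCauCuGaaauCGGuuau
MIR212: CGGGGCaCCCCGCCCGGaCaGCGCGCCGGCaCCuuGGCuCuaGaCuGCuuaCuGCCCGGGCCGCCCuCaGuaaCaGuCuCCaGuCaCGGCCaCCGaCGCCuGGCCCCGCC
G and C made up 32.8% of the MIR29A hairpin, 40.2% of MIRLET7F1, 47.6% of MIRLET7C, 67.2% of MIR375 and 73.6% of MIR212. Over the 155 of 173 miRNA genes with a RefSeq hairpin, the share of G and C had a Pearson correlation of 0.552 with the interaction, 0.385 with the estradiol effect with CG-1521 and -0.55 with the estradiol effect without it. These points share all 12 arrays, and the share of G and C also correlated with the level (0.714). With the SUM149PT interaction the correlation was 0.00729. With the hairpins split into 3 groups of like size, the median interaction was 0.34 in the group richest in G and C, 0.15 in the middle and -0.04 in the poorest. After another quantile normalization these medians were 0.21, 0.06 and -0.06, and after cyclic loess 0.16, 0.04 and -0.06, with correlations of 0.508 and 0.465. The part of base composition in the result was not tested.

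**Figure D3:**
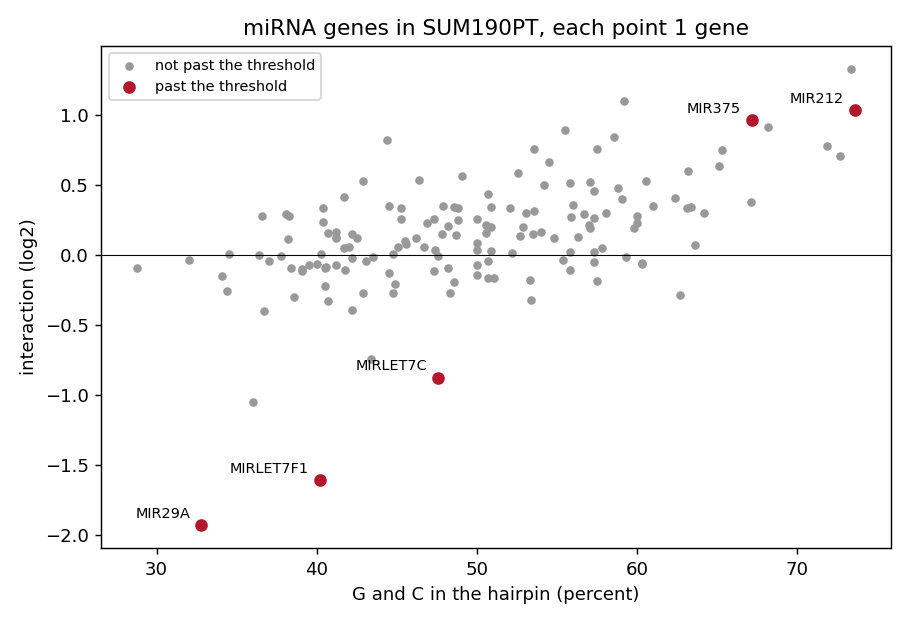
Interaction in SUM190PT (log2, vertical axis) against the percentage of G and C in the hairpin (horizontal axis), each point 1 of 155 miRNA genes. The genes past the threshold with a negative interaction (MIR29A, MIRLET7F1 and MIRLET7C) lie at 32.8 to 47.6% and those with a positive one (MIR375 and MIR212) at 67.2 and 73.6%.

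snoRNAs guide chemical modification of ribosomal and spliceosomal RNA and are mostly cut from introns of host genes, whose transcripts the arrays may not tell apart from them. SNORD45B had the most negative interaction of all 18417 genes. Its values were 6.73, 6.89 and 5.70 in E2+CG against 7.25, 7.55 and 7.07 in CG, and 7.65, 7.85 and 7.74 in E2 against 6.99, 5.96 and 6.18 in vehicle. The third E2+CG array and the first vehicle array stood apart from the other arrays of their groups. The interaction was -2.22 (SE 0.419, adjusted p = 0.0476), the widest error among the 10 small RNAs. SNORD49A (-1.67), SNORD78 (-1.16) and SNORD58A (-1.06), like SNORD45B of the C/D class that guides methylation, were also negative, and SNORA80B (1.32), of the H/ACA class that guides pseudouridylation, was positive. Over the 175 snoRNA genes the median interaction was -0.23, against 0.04 over all genes. The median snoRNA level per array was 5.18, 5.16 and 5.11 in E2+CG against 5.37, 5.28 and 5.41 in CG, and 5.31, 5.43 and 5.11 in E2 against 4.91, 4.82 and 4.69 in vehicle. Neither pair of groups overlapped, and the median stayed negative under each scaling tried (-0.34 to -0.23).

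The rest of the 95 genes, named here after their values were seen, were mostly positive. Transcription factors were NKX2-4 (1.07), SP6 (1.05), NKX6-1 (0.97), KLF2 (0.95), EVX1 (0.94), MYOG (0.83) and FOXB1 (0.77), with the corepressor RIPPLY3 (0.86). Several of these homeobox and forkhead genes pattern the embryo, MYOG drives muscle differentiation, and KLF2 is a regulator of endothelial and T cells. KLF2 had 7.79, 7.41 and 7.71 in E2+CG against 7.47, 7.48 and 7.50 in CG, and 7.08, 7.05 and 6.99 in E2 against 7.77, 7.88 and 7.85 in vehicle. Here the E2 arrays lay far below the vehicle arrays, whereas the E2+CG and CG arrays overlapped, and the interaction was 0.95 (SE 0.154, adjusted p = 0.0476). Secreted and matrix proteins were the complement component C8G (1.07), the protease PRSS12 (1.06), WNT7A (1.00), a ligand of the Wnt pathway, the heparan sulfatase SULF2 (0.90), the lipid carrier APOE (0.87), the proteoglycan BGN (0.86), CILP2 (0.86), the protease inhibitor CST7 (0.83) and the growth factor carrier IGFALS (0.79).

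Channels, carriers and receptors among them were KCNK12 (1.09), SLC45A1 (1.02), EPHA8 (0.97), SLC25A47 (0.93), DRD4 (0.90), EPHA10 (0.74), KCNN3 (0.72) and TRPM2 (0.69), of which DRD4 is a dopamine receptor and both EPHA genes encode ephrin receptors. Signalling and ubiquitin pathway genes were FBXO17 (1.07), RASGRF1 (1.00), ARHGAP23 (0.97), AMER3 (0.96), KLHDC7B (0.93), ASB16 (0.74) and MAP3K10 (0.74). EPHA10, FBXO17, RASGRF1 and ARHGAP23 each have a second probe set, whose interactions were 0.20, 0.21, 0.18 and -0.01 with adjusted p over all probe sets of 0.473 to 0.987, so their probe sets disagree. Genes known from neurons were PLPPR3 (1.04), SYN2 (0.92) and TPPP (0.73), and genes known from germ cells were ADAD2 (0.99), PRM3 (0.99), SPDYC (0.86) and TSSK6 (0.82). RASGRF1, an exchange factor for RAS, differed from most in that its effect with CG-1521 was the larger, 0.70 against -0.30 without it. The others were PTGIS (0.89), which makes prostacyclin, WDR86 (0.89), MCTP2 (0.87), TMEM72 (0.83), TMEM158 (0.81), the platelet glycoprotein GP5 (0.81), the nucleotidase NT5C1A (0.80), IGDCC3 (0.75), LRRC75B (0.74), PIDD1 (0.73), a platform for caspase activation, and the long noncoding RNAs LINC00937 (0.95), TSPEAR-AS2 (0.95) and FAM201B (0.92).

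The further negative genes were ZNF557 (-0.95), a zinc finger protein, TAS2R50 given above, TOR1AIP2 (-0.93) of the nuclear envelope and endoplasmic reticulum, TRAPPC13 (-0.85) and GOLGA4 (-0.71) of Golgi traffic, the deubiquitinase MINDY3 (-0.83) and TANK (-0.76), an adaptor of NF-kB and interferon signalling. The second probe sets of TOR1AIP2 (-0.66, adjusted p = 0.0756 over all probe sets) and TRAPPC13 (-0.80, adjusted p = 0.142) had the same sign. TANK had 6.27, 6.25 and 6.28 in E2+CG against 6.45, 6.37 and 6.40 in CG, and 6.38, 6.43 and 6.49 in E2 against 5.89, 5.88 and 5.65 in vehicle. Its vehicle arrays were below all others, and the estradiol effect was -0.14 with CG-1521 and 0.62 without it.

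Estrogen receptors, coregulators and classical target genes were examined as lists. Of 26 measured genes of estrogen response 1 passed with a positive interaction and 0 with a negative one, and the same held for 26 nuclear receptors and coregulators, against 0.375% of all genes positive and 0.141% negative. The median interaction was 0.06 for estrogen response (0.09 after another quantile normalization, 0.03 after cyclic loess) and 0.18 for the receptors and coregulators (0.09 and 0.00). The gene was GPER1 in both lists, the membrane estrogen receptor. It had 5.39, 5.44 and 5.53 in E2+CG against 5.14, 5.15 and 5.33 in CG, and 5.08, 4.88 and 4.93 in E2 against 5.43, 5.57 and 5.60 in vehicle. The E2+CG arrays were above the CG arrays and the E2 arrays were the lowest of the 12. The interaction was 0.82 (SE 0.148, adjusted p = 0.0476), with estradiol effects of 0.25 with CG-1521 and -0.57 without it, neither past the threshold alone.

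The nuclear receptor ESR1 had 4.75, 4.44 and 4.58 in E2+CG against 4.54, 4.55 and 4.60 in CG, and 4.35, 4.85 and 4.55 in E2 against 4.54, 4.84 and 4.72 in vehicle. All 4 groups overlapped, and the interaction was 0.15 (95% interval -0.27 to 0.56, adjusted p = 0.695), a sign that turned to -0.07 after another quantile normalization. ESR2, which encodes estrogen receptor β, had -0.06 (95% interval -0.40 to 0.28, adjusted p = 0.854). The estrogen-induced genes TFF1 (0.53, adjusted p = 0.24), PGR (0.36, adjusted p = 0.282) and GREB1 (0.29, adjusted p = 0.218) did not pass either. GREB1, a coactivator of the estrogen receptor, had 4.44, 4.41 and 4.54 in E2+CG against 4.31, 4.36 and 4.25 in CG, and 4.14, 4.09 and 3.97 in E2 against 4.17, 4.29 and 4.14 in vehicle. The E2+CG arrays were above the CG arrays without overlap, and the E2 arrays at or below the lowest vehicle array. UGT2B7, an enzyme that conjugates estrogens, had a large value just outside the threshold (-1.60, SE 0.393, adjusted p = 0.0651), with 3.96, 3.26 and 3.50 in E2+CG against 3.45, 3.85 and 4.36 in CG, and 4.86, 5.68 and 5.39 in E2 against 4.48, 3.78 and 3.79 in vehicle.

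HSPA6, CDKN1A and FASN, whose CG-1521 effects passed, did not pass for the interaction. HSPA6, an inducible heat shock protein, had 10.46, 9.54 and 10.97 in E2+CG against 10.55, 8.76 and 11.75 in CG, and 5.44, 5.38 and 5.06 in E2 against 5.43, 5.28 and 5.71 in vehicle. CG-1521 raised it by 5.03 in the presence of estradiol (adjusted p = 0.000105) and by 4.88 in its absence (adjusted p = 0.000159), and the interaction was 0.15 with a 95% interval of -1.55 to 1.85. For CDKN1A CG-1521 gave 1.20 in the presence of estradiol (adjusted p = 0.000429) and 1.40 in its absence (adjusted p = 0.00019), with an interaction of -0.20 (95% interval -0.71 to 0.31, adjusted p = 0.653). FASN, the fatty acid synthase, had CG-1521 effects of -1.12 in the presence of estradiol (adjusted p = 0.0113) and -1.25 in its absence (adjusted p = 0.00811), and an interaction of 0.13 (95% interval -0.71 to 0.97). The interval for TYMS, thymidylate synthase, was -2.42 to 1.93, and the third E2 and vehicle arrays, 6.91 and 6.42, lay below the other E2 arrays (9.30 and 9.16) and vehicle arrays (9.29 and 8.88).

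The 34 gene lists held 745 measured members, which were 721 different genes, and 2 of these passed (0.277%, against 0.516% of all genes): GPER1 and CDKN2D. CDKN2D, the p19 inhibitor of the kinases CDK4 and CDK6, was 1 of 16 CDK inhibitors and growth arrest genes. It had 7.26, 7.18 and 7.33 in E2+CG against 6.90, 6.94 and 6.84 in CG, and 6.96, 6.70 and 6.82 in E2 against 7.37, 7.30 and 7.14 in vehicle. Neither pair of groups overlapped, and the interaction was 0.80 (SE 0.15, adjusted p = 0.0476). The list's median interaction was -0.02, with 11 of the 16 values negative (8405 of all 18417 genes). This median turned to 0.12 after another quantile normalization and 0.07 after cyclic loess. RB1, the retinoblastoma protein that these inhibitors keep active, had -0.88 (adjusted p = 0.081), and CDKN1C 0.67 (adjusted p = 0.072).

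The lowest list median was that of the spindle and kinetochore genes, -0.42 over 33 genes, of which 29 were negative and 0 passed. Of all 18417 genes 8405 were negative. With the pairs as a block 9 of the 33 passed as negative, against 5.99% of all genes. The list's median level per array was 5.34, 6.43 and 5.99 in E2+CG against 5.58, 6.55 and 5.89 in CG, and 8.57, 8.57 and 7.23 in E2 against 8.44, 7.90 and 6.86 in vehicle. The third E2 and vehicle arrays were below the others of their groups, in this list and in those of DNA replication and of G2/M and cytokinesis. AURKA, a spindle kinase, had -0.91 (SE 0.554, adjusted p = 0.355), and CENPE, a kinetochore motor, -0.75 (SE 0.554, adjusted p = 0.449). CG-1521 lowered 33 of the 33 genes in the presence of estradiol (13.2% of all genes) and 23 in its absence (8.26% of all genes), comparisons that share arrays with the interaction. DNA replication genes had a median of -0.12 (0 of 34 passed) and G2/M and cytokinesis genes also -0.12 (0 of 28). After another quantile normalization and cyclic loess these were 0.00 and -0.07 for DNA replication, -0.07 and -0.09 for G2/M and cytokinesis, and -0.38 and -0.39 for spindle and kinetochore genes.

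Heat shock genes had a median interaction of -0.14, with 15 of 20 negative (8405 of all 18417 genes) and 0 past the threshold. CHORDC1, an HSP90 cochaperone, had -1.06 (adjusted p = 0.145). CG-1521 raised 17 of the 20 in the presence of estradiol (12.5% of all genes) and 20 in its absence (8.32% of all genes). The NRF2 redox genes had a median of -0.16 (20 of 25 negative) and the histone acetyltransferases one of -0.20 (10 of 14 negative), with 0 past the threshold in both. The list of histone deacetylases, HDAC1 to HDAC11 and the sirtuins SIRT1 to SIRT7, had a median of 0.01 over 18 genes. HDAC1 had -0.67 (SE 0.337, adjusted p = 0.262). Most of these medians shrank with the scaling. After another quantile normalization and cyclic loess they were -0.01 and -0.03 for heat shock genes, -0.04 and -0.03 for NRF2 redox genes, -0.11 and -0.15 for histone acetyltransferases, and -0.01 and -0.03 for histone deacetylases.

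As deposited, the highest median was that of mesenchymal genes, followed by markers of other cell types. Mesenchymal genes had 0.34 (18 of 22 positive), leukocyte markers 0.28 (11 of 13), endothelial markers 0.27 (11 of 12) and fibroblast markers 0.18 (9 of 14), with 0 past the threshold in each. Their medians per array lay between 4.19 and 5.18 in all groups. TWIST2, a mesenchymal transcription factor, had 0.94 (SE 0.197, adjusted p = 0.0537) and CD14, a monocyte receptor, 0.70 (adjusted p = 0.0647). After another quantile normalization the mesenchymal median was 0.14, the leukocyte median 0.16 and the endothelial median 0.19, while the fibroblast median turned to -0.02. The highest median by that normalization was that of immediate early genes, 0.21, against 0.11 as deposited.

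**Figure D4:**
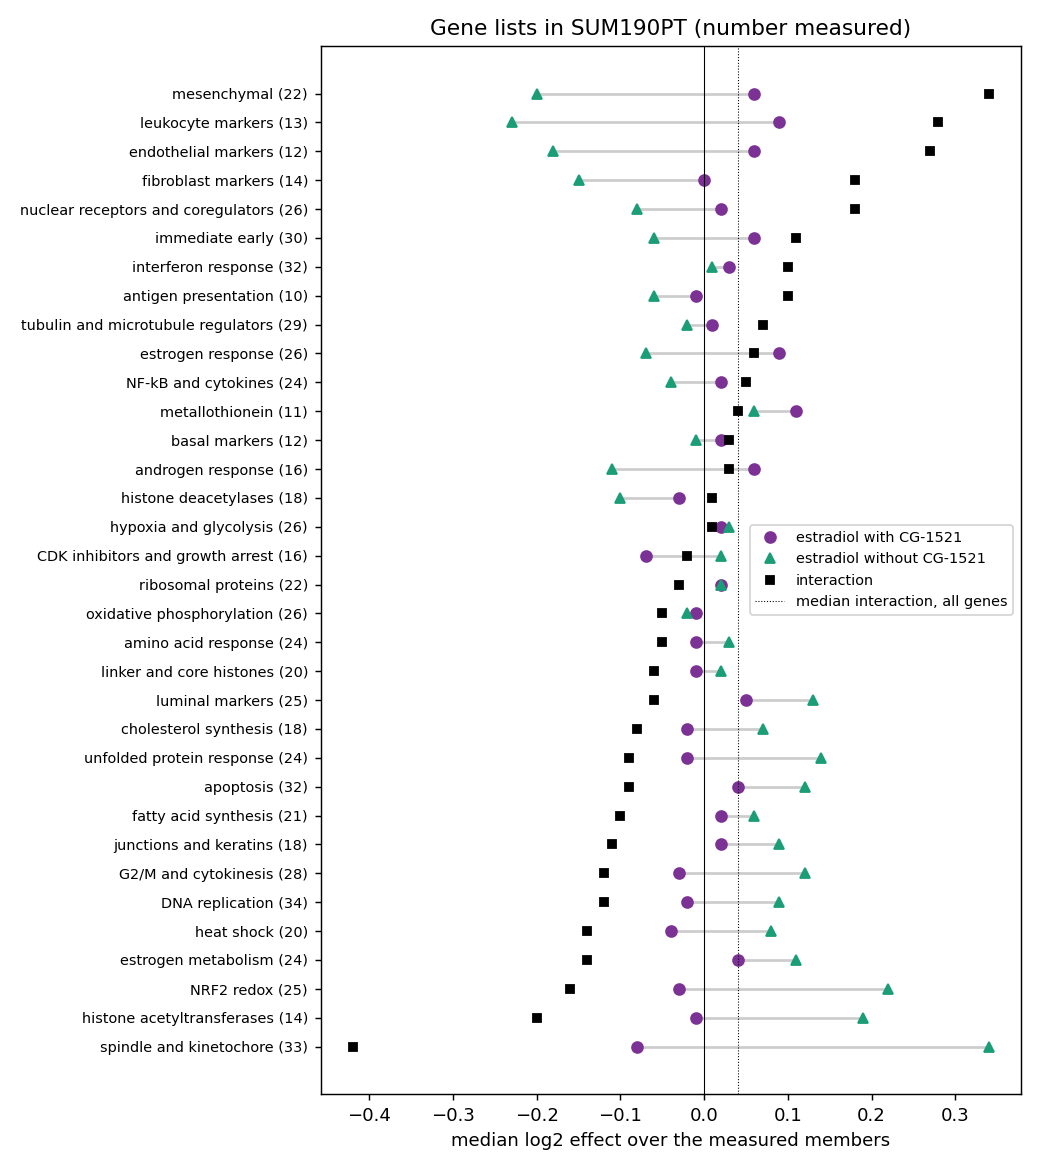
Median log2 effect over the measured members of 34 gene lists in SUM190PT, with the estradiol effect with CG-1521 (circles), without it (triangles) and the interaction (squares), and the number measured in brackets. As deposited, the medians of the interaction run from 0.34 for mesenchymal genes to -0.42 for spindle and kinetochore genes, and the dotted line marks 0.04, the median of all genes.

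Some members of other lists lay just outside the threshold. BBC3, which encodes the pro-apoptotic protein PUMA, had 6.91, 6.51 and 7.13 in E2+CG against 6.43, 6.47 and 6.70 in CG, and 6.16, 5.82 and 5.97 in E2 against 6.42, 7.22 and 7.25 in vehicle. Its interaction was 1.30 (SE 0.303, adjusted p = 0.0612), and the E2+CG and CG arrays overlapped. EGR4, an immediate early transcription factor, had 0.99 (SE 0.22, adjusted p = 0.0592), STMN3, a stathmin that binds tubulin, 0.93 (SE 0.207, adjusted p = 0.0592), IRF7, a regulator of interferon genes, 0.90 (SE 0.208, adjusted p = 0.0612), and CIITA, the activator of MHC class II genes, 0.79 (SE 0.167, adjusted p = 0.054). BCL2, which opposes BBC3, had 0.69 (adjusted p = 0.0716) and XIAP, an inhibitor of caspases, -0.78 (adjusted p = 0.115).

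The interaction also varied with the level of a gene, and the arrays differed in their spread of values. In 10 equal groups of genes ordered by mean level, the median interaction was 0.07 in the dimmest, 0.29 in the fourth, 0.05 in the sixth and -0.15 in the brightest. The median estradiol effect in the fourth was 0.08 with CG-1521 and -0.20 without it. Of the 69 positive genes 18 lay in the fourth and 20 in the fifth of these groups. The SD of log2 values over genes was 2.01, 2.03 and 1.99 in E2+CG against 2.04, 2.02 and 2.05 in CG, and 2.11, 2.12 and 2.08 in E2 against 2.06, 1.98 and 1.98 in vehicle. The E2 arrays had the widest spread of the 4 groups. The interaction of this SD was -0.12 (exact permutation test, two-sided). With estradiol exchanged only within the 6 numbered pairs the exact p was 0.0625, over 64 arrangements whose smallest p is 0.0312, and with estradiol exchanged freely within each CG-1521 setting, which leaves out the pairing, it was 0.01, over 400 arrangements. After another quantile normalization, which gives every array the same spread, the 10 medians lay between 0.00 and 0.07, the median of the 95 genes was 0.71 against 0.86 as deposited, all 95 kept their sign, and 3 genes passed, 0 positive and 3 negative. The part of array spread in the result was not tested further.

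**Figure D5:**
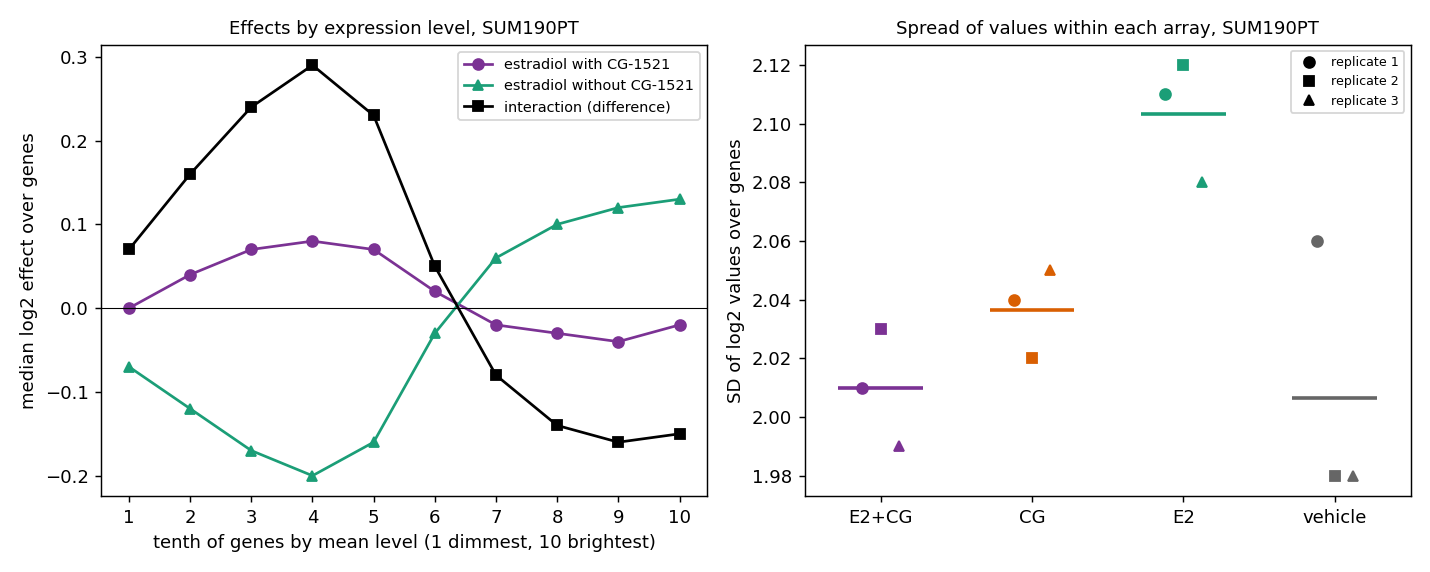
Left, median log2 effect over genes (vertical axis) in 10 groups of genes ordered by mean level (horizontal axis, dimmest to brightest), for estradiol with CG-1521, estradiol without CG-1521 and their difference, which peaks at 0.29 in the fourth group. Right, the SD of log2 values over genes on each SUM190PT array, where the 3 E2 arrays (2.11, 2.12 and 2.08) lie above the arrays of the other groups.

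In SUM149PT the same contrast gave 0 genes past the threshold with limma (0.0%; 1046 genes, or 5.68%, at an unadjusted p under 0.05). Over the 69 genes positive in SUM190PT the SUM149PT interaction had a median of 0.10 and lay between -0.20 and 0.41, and over the 26 negative genes it had a median of 0.00 and lay between -0.75 and 0.29. The difference between the lines, SUM190PT minus SUM149PT, passed for 1 gene (0.00543%; 2949 genes, or 16.0%, at an unadjusted p under 0.05). It was MIR29A, whose interaction was -1.93 in SUM190PT and 0.29 in SUM149PT, a difference of -2.22 (SE 0.334, adjusted p = 0.0212). On the SUM149PT arrays MIR29A lay only between 2.8 and 3.34. In SUM190PT it lay between 2.92 and 3.07 in vehicle and between 3.4 and 4.75 in the other groups. The dimmest group of genes by mean level in SUM190PT had a median level of 3.22. Whether the arrays detect MIR29A at such levels was not tested. The count of genes for the line difference was 0 on leaving out any of 13 of the 24 arrays and 689 without the first SUM190PT vehicle array. KLF2 (1.15), EVX1 (0.89), TWIST2 (1.29) and ZNF557 (-1.23) were 4 of the 25 genes that shared the next adjusted p, 0.0636. Dose of CG-1521, medium and line differed together, so they cannot be told apart.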

How the data were processed

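RNA of 24 cultures was amplified and hybridised to Affymetrix Human Gene ST arrays, per the labels' protocols. The authors deposited log2 values, which came from RMA run in Affymetrix Expression Console, per the submitters' processing notes. Versions, and whether the lines were normalized together, are not given in the sources used here. Precision is limited by the number of arrays. The table held 33297 probe sets, 19460 of them with 1 gene symbol; the brightest probe set stood for a gene, which left 18417 genes, with no filter on level. A few other members of the lists were not analysed here. limma 3.58.1 in R 4.3.3 fitted the 12 SUM190PT arrays without a block, two-sided, with Benjamini-Hochberg adjustment over all genes. It fitted 12 SUM149PT arrays for that line and all 24 for the line difference. The fit was tested on simulated data. Those held independent values on each array, so that test did not cover pairing or differences in array spread.

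Pairs within a CG-1521 setting were taken from the replicate number. Deviations from group means of arrays with the same number correlated at 0.443, 0.229 and 0.729 between E2 and vehicle. Between E2+CG and CG they correlated at 0.518, 0.434 and 0.502, and across CG-1521 settings at -0.125 to 0.236. Arrays with different numbers correlated at -0.318 to -0.172 between E2+CG and CG. Between E2 and vehicle, the second E2 array correlated at 0.447 with the first vehicle array. The first E2 array correlated at 0.278 with the second vehicle array. There the number clearly set apart only the third arrays, at -0.58 to -0.328 with other numbers. Named genes were the 12 most positive and 12 most negative interactions among genes past the threshold (small RNAs, uncharacterized loci and olfactory receptors skipped), 3 members per list by smallest p, a fixed set of hormone and inhibitor genes, and 4 genes by smallest p for SUM149PT and for the line difference. The members, lists and rules were chosen with earlier results of these data known. Alternatives covered blocks, scaling, filters, probe sets, variance models, array weights and leaving out arrays. Sequences and hairpins are from RefSeq, GRCh38.p14.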

Additional observations from a re-analysis of the deposited data

Results flagged for a closer look

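The estradiol effect differed between the CG-1521 settings in 95 genes of SUM190PT by the interaction test, each with an adjusted p close to the threshold. MIR29A was set apart by a difference between the lines: its interaction in SUM190PT minus that in SUM149PT was -2.22 on the log2 scale (limma over 24 arrays, adjusted p = 0.0212). Its SUM149PT values, 2.8 to 3.34, lay near 3.22, the median level of the dimmest group of genes in SUM190PT. Whether the arrays detect it at such levels was not tested.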

How the results depend on the processing

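Among 95 interaction genes, sign was kept in all under each scaling tried. The count was not stable, and the cause was not tested. It was 0 with the replicate number as a block over 4 groups, where the 95 genes shared an adjusted p of 0.0509. It was 2414 with the pairs as a replicate block. It was 3 after another quantile normalization (0 positive, 3 negative) and 10 with arrays centred on their median (1 positive, 9 negative). After cyclic loess it was 17 (3 positive, 14 negative), and without the dimmest 50% of genes 1. With all 24 arrays in one fit it was 2540, with trend and robust variances 4 and with array weights 1814. The mean of a gene's probe sets gave 66, leaving out small RNA genes 3, and leaving out the third arrays of vehicle and of estradiol 1. A fit of all 33297 probe sets, not of genes, gave 359 probe sets (170 positive, 189 negative). Cyclic loess, leaving out small RNAs and the test within pairs of the array spread were chosen after seeing the data. Centring moved the median interaction of all genes to -0.07, against 0.04 as deposited. Leaving out 1 array at a time gave 0 to 1655 interaction genes.

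Estradiol with CG-1521 gave 7 genes with all 24 arrays, 1 without the third vehicle and estradiol arrays, and 0 to 1 leaving out 1 array. Estradiol without CG-1521 gave 519 genes with the number block, 3168 with the pairs as a block and 2 without the dimmest genes. It gave 2990 with all 24 arrays, 0 without the third arrays, 3079 with array weights, and 0 to 2261 leaving out 1 array. Over all 33297 probe sets it gave 649 probe sets. CG-1521 with estradiol gave 7203 genes with array weights and 2605 to 5034 leaving out 1 array. CG-1521 without estradiol gave 5070 with all 24 arrays and 1567 to 3364 leaving out 1 array; centring made 2069 of 3117 higher, against 1532 of 3053. The SUM149PT interaction gave 0 to 1 leaving out 1 array. The line difference gave 3 with the replicate block, 0 without the dimmest genes and 0 to 689 leaving out 1 array.

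No named gene that passed turned its sign; KRCC1 passed under 12 of 24 alternatives, TAS2R19 under 11 of 23, MIR29A under 9 of 22 and GPER1 under 5 of 23. Among the others, after quantile normalization and cyclic loess ESR1 became -0.07 and -0.10, ERBB2 0.09 and 0.06, and KLF15 (named for SUM149PT, like GALC) -0.07 and -0.10. HSPA6 became -0.09 without the third arrays and -0.25 with array weights, and GALC 0.07 with array weights. Leaving out 1 array gave -0.15 to 0.02 for ESR2, -0.17 to 0.04 for ERBB2, -0.65 to 0.84 for HSPA6, -0.15 to 0.46 for FASN, -1.02 to 0.64 for TYMS, -0.05 to 0.40 for KLF15 and -0.25 to 0.24 for GALC. All other values kept their sign.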
